A study of Mus musculus with 6 samples.

Results

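The comparison described here set the library labelled MEP1+Metformin+Rapamycin (the combination) against the library labelled MEP1+Rapamycin (rapamycin alone), and so asked what differed when metformin was given together with rapamycin. Both libraries were chosen by their treatment labels, and they are 2 of the 6 libraries of the series. The other libraries were No treatment, MEP1+CMC, MEP1+Metformin and a naive CD4 control. They served to place the values of the combination and of rapamycin alone.

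All libraries came from mouse CD4 T cells that carry the CBir1 T-cell receptor transgene, on the C57BL/6 strain. Donor cells were CD45.1, CD4+ and CD44-, and 2000000 of them were transferred into CD45.2 C57BL/6 recipients on day 0. Recipients were immunised intraperitoneally with 50 ug of CBir1 flagellin and 1 ug of CT on days 1 and 7. The mice behind both libraries compared here were given 3 ug of MEP1, the peptide antigen of the study, intravenously on days 28 and 35. Intraperitoneal injections in the vehicle CMC then followed for 5 days, holding rapamycin for one group and metformin together with rapamycin for the other. The MEP1+CMC and MEP1+Metformin groups followed the same schedule with vehicle or metformin, and the No treatment group was given neither MEP1 nor an inhibitor in that period. Per the protocol every recipient was given 3 ug of MEP1 again on day 56, and what remained of the donor cells in the spleen was sorted on day 63. For No treatment the header of the deposited counts names no challenge, against the label, so its levels are given here under the label with that doubt. Each condition had 1 library, and the sources used here do not give the number, age or sex of the mice behind it. The cells had last met the inhibitors weeks before the sort.

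The CBir1 receptor recognises flagellin from gut commensals, presented on MHC class II. Rapamycin inhibits mTOR complex 1, the kinase complex that couples nutrients and growth factors to translation, ribosome production and glycolysis, and that favours effector over regulatory and memory fates in T cells. Metformin is a diabetes drug that slows respiratory complex I and, through the falling energy charge, activates the kinase AMPK, which restrains mTOR complex 1 and favours the oxidation of fuels. CD4 effector cells of the Th1 kind are known for the transcription factors T-bet and Eomes, the cytokine interferon gamma, granzymes and the receptors that take cells into inflamed tissue.

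The combination library held 50177994 counts on genes and the rapamycin library 32321936. Counts were detected on 27686 and 29668 genes. Both libraries were CD4 T cells by their markers: Cd4 was at 1001 CPM (counts per 1000000, after each library's total was multiplied by its TMM factor) in the combination and 761 with rapamycin, and all 18 CD4 identity genes were counted in both. The transgenic receptor segment Trbv13-1 made up 98.9% and 99.1% of the beta variable segment counts. Both libraries had the pattern of male cells, with Ddx3y at 85.6 and 67.9 CPM and Xist at 0.318 and 0.532, as had MEP1+Metformin, whereas MEP1+CMC had Xist at 257 and Ddx3y at 0.301. Sex-linked transcripts therefore did not separate the libraries compared. No treatment held both transcripts, with Xist at 23.0 and Ddx3y at 34.2 CPM. Non-coding and pseudogene loci took 2.35% of the counts in the combination and 3.69% with rapamycin, and 5 loci that resemble ribosomal RNA took 1.28% and 3.13%. These shares moved with the comparison, and their part in the results was not tested.

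Of 12928 genes with enough counts, 308 were higher in the combination and 595 were lower. A gene passed when its TMM ratio was at least 2-fold and the exact 95% interval of the 2 counts excluded no change. By this rule 6.98% of genes passed, with 2.38% higher and 4.6% lower. The counts of list members below are to be read beside these shares. The median log2 ratio over all genes was -0.03. Reads carried no molecular identifiers, so they do not count independent molecules, and the intervals cover counting error only. Without replicates no p-value is given, and a mouse-to-mouse difference cannot be told apart from a treatment difference. The sorted cells were measured in bulk, so fewer cells of a type and less RNA per cell cannot be told apart either. The excess of lower genes depended on which genes were counted: among the 10960 protein-coding genes 249 were higher and 257 lower, and among genes with at least 10 CPM 80 were higher and 73 lower. With library totals in place of TMM, 390 were higher and 472 lower, which is 45.2% higher against 34.1%.

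**Figure D1:**
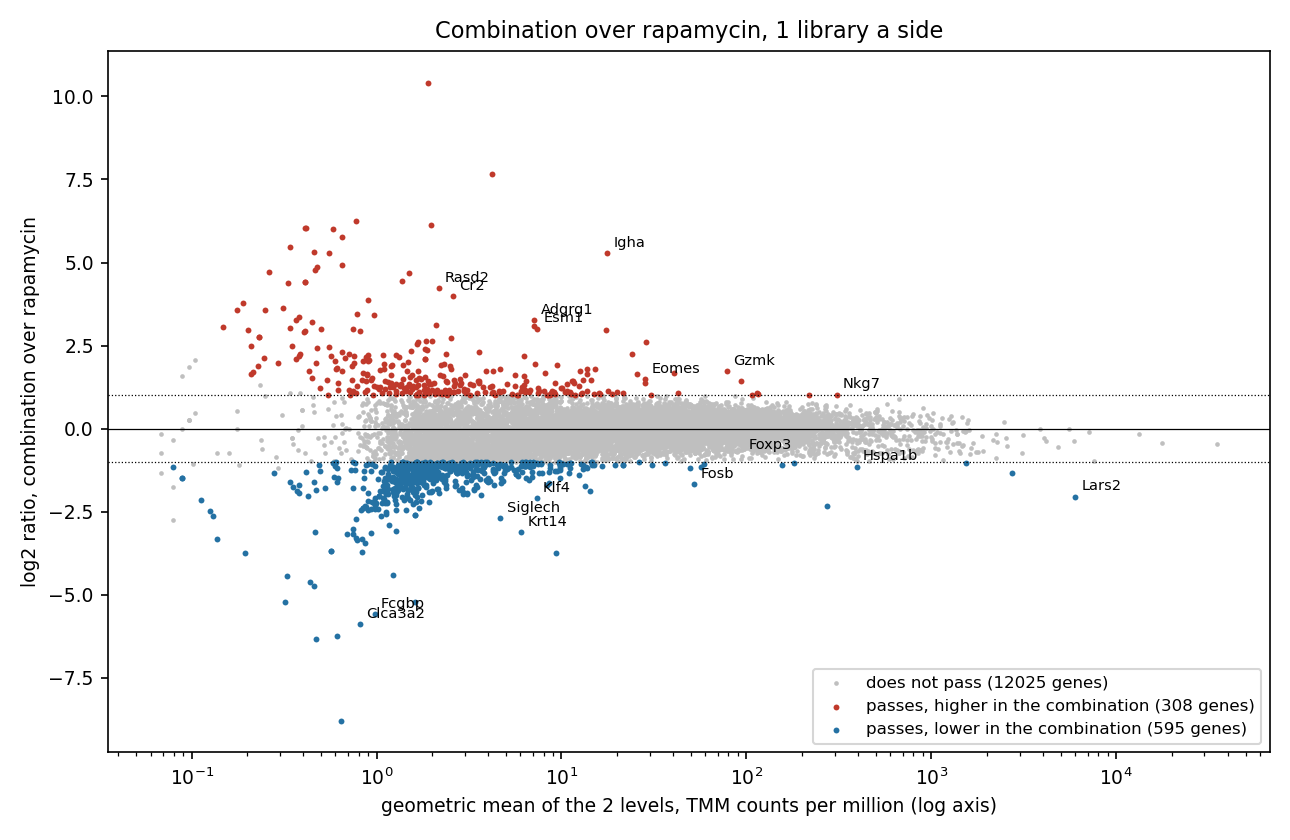
The log2 ratio of the combination over rapamycin (vertical axis) against the geometric mean of both levels in TMM CPM (log axis), 1 point per gene, with dotted lines at 2-fold. The 308 higher and 595 lower genes lie mostly at low levels, and named genes with high levels, such as Nkg7 and Gzmk, sit among a large majority that did not pass.

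The 338 lower genes outside the protein-coding class were antisense, lincRNA, intronic, pseudogene and unclassified (TEC) loci for the most part. The median log2 ratio was -0.60 over 537 processed pseudogenes, -0.68 over 304 TEC loci and -0.71 over 39 sense intronic loci, beside 0.02 over protein-coding genes. Within protein-coding genes the ratio also moved with exon length. In 5 bins of near-equal size, the shortest genes, of 90 to 2323 exon bases, had a median of -0.24, and those of 4911 to 7105 bases had a median of 0.13. Groups of short genes are therefore given below also with this length trend removed.

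**Figure D2:**
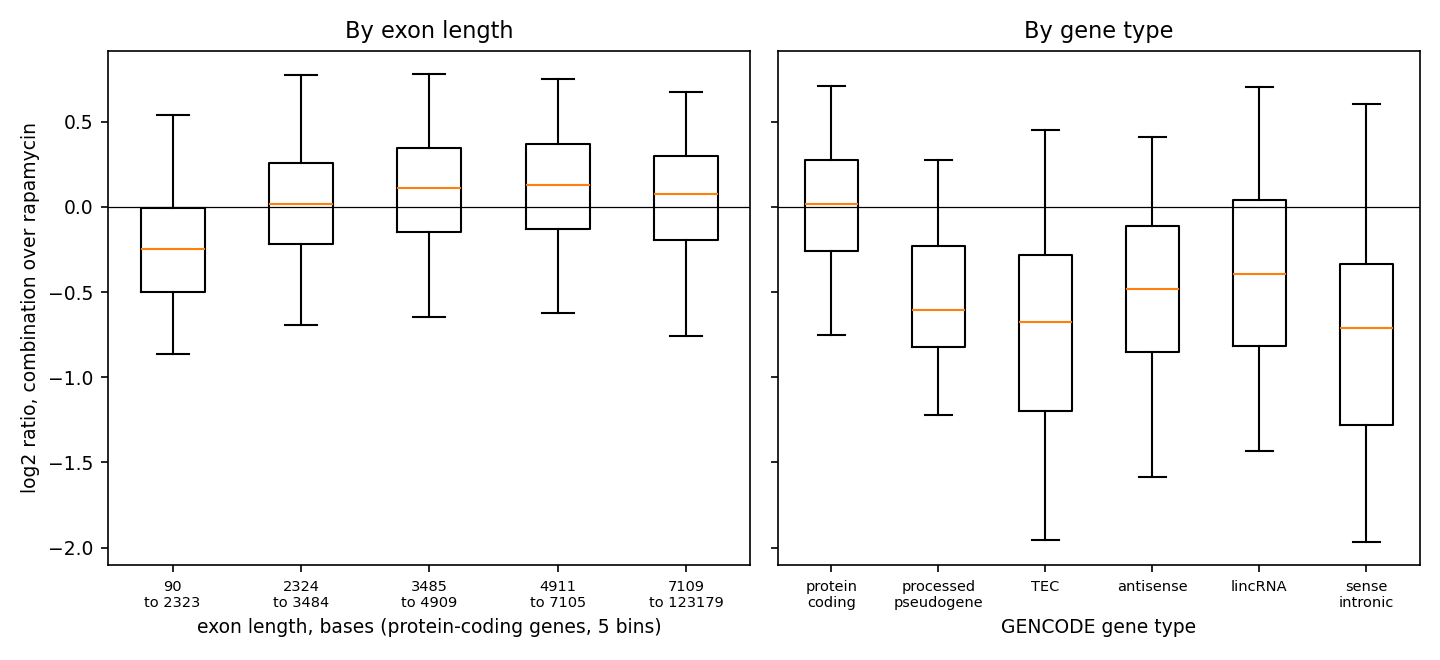
Boxes give the median and quartiles of the log2 ratio of the combination over rapamycin, and whiskers the percentiles 5 and 95, in 5 bins of exon length of protein-coding genes (left) and by GENCODE gene type (right). The shortest bin has a median of -0.24, and pseudogene, TEC, antisense, lincRNA and sense intronic loci have medians below that of protein-coding genes.

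The 15 leading higher genes were ranked by the interval bound nearest to no change, among genes with 5 CPM or more in the higher library, with receptor segments, sex-linked, ribosomal RNA-like and clone-named loci left out. They included Rasd2, Cr2, Adgrg1, Esm1, Ncald, Dapk2, Itgae, Krt15, Gzmk, Itgad, Rgs16, Baiap3 and Penk. B-cell markers, Cr2 among them, made up 2 of the 15 and are described with the other B-cell genes. In 11 of the other 13 the rapamycin library was the lowest of the 5 libraries of transferred cells, beside 25.8% of all genes. In 11 of the 13 the MEP1+CMC library was the highest, beside 14.1% of all genes. A gene ranked by its ratio over the rapamycin library is more likely than others to be lowest there, so the first count is a description.

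Ccr2, a receptor for monocyte chemoattractants, was at 45.5 CPM in the combination and 17.6 with rapamycin. It was at 32.4 in No treatment, 114 in MEP1+CMC, 43.3 in MEP1+Metformin and 0.374 in naive cells. The combination thus lay beside MEP1+Metformin, and rapamycin alone lay below the other transferred libraries. The ratio over rapamycin was 2.59-fold (95% interval 2.36 to 2.83) on 2575 and 595 counts.

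Gzmk, a granzyme of effector and memory T cells (ENSMUSG00000042385, chr13:113171608-113225908 on GRCm38), was at 143 CPM in the combination and 42.9 with rapamycin, against 139 in No treatment, 465 in MEP1+CMC, 126 in MEP1+Metformin and 1.12 in naive cells. Its ratio was 3.33-fold (3.15 to 3.52). Esm1, which encodes a secreted proteoglycan (ENSMUSG00000042379, chr13:113209659-113218098), was at 21.0 CPM in the combination and 2.60 with rapamycin, against 27.5 in No treatment, 117 in MEP1+CMC, 23.0 in MEP1+Metformin and 0.107 in naive cells. Its ratio was 8.06-fold (6.49 to 10.1). The 2 gene models overlap and lie on opposite strands, and the sources used here do not say whether counting used strand, so reads in shared bases cannot be assigned to one of them.

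Adgrg1, an adhesion G protein-coupled receptor of cytotoxic lymphocytes (ENSMUSG00000031785, chr8:94974751-95014217), was at 22.1 CPM in the combination and 2.30 with rapamycin. It was at 16.1 in No treatment, 58.8 in MEP1+CMC and 25 in MEP1+Metformin, and the ratio over rapamycin was 9.58-fold (7.62 to 12.2). Rgs16, which ends signalling from chemokine receptors, was at 25.5 and 7.33 CPM, with 43.9, 194 and 62.3 in No treatment, MEP1+CMC and MEP1+Metformin. Here the combination stayed below all 3 of those libraries while still 3.48-fold (3.04 to 4.0) above rapamycin.

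Rasd2, a small GTPase of the Ras family, had the largest ratio among the 15, 18.7-fold (11.6 to 32.3), on 532 counts in the combination and 17 with rapamycin. Its levels were 9.39 and 0.502 CPM, beside 4.53 in No treatment, 22.1 in MEP1+CMC and 12.6 in MEP1+Metformin, and it had no count in naive cells. Ncald, a neuronal calcium sensor, was at 6.14 and 0.709 CPM, and Dapk2, a death-associated kinase, at 6.50 and 0.975. Both were again highest in MEP1+CMC, at 16.7 and 21.8. Penk, the precursor of enkephalin peptides, was at 45.6 and 14.5 CPM with 134 in MEP1+CMC, and Baiap3, a protein of vesicle fusion, at 72.5 and 22.7 with 143 in MEP1+CMC.

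Itgae and Krt15 broke this order. Itgae, the CD103 integrin chain that binds E-cadherin on epithelium, was at 7.96 CPM in the combination and between 1.06 and 1.89 in the other libraries of transferred cells, with 1.62 under rapamycin. It was 4.90-fold (3.70 to 6.61) above rapamycin, and the combination was the only library that stood apart. Krt15, a keratin, was at 18.5 CPM in the combination and 20.2 in MEP1+Metformin, against 4.87 with rapamycin, 3.85 in MEP1+CMC and 4.76 in No treatment. Krt15 was thus high in both libraries with metformin and low in the 3 other transferred libraries. Itgad, an integrin chain of macrophages and some lymphocytes, was at 28.3 and 8.15 CPM, beside 39.1, 55.8 and 25 in No treatment, MEP1+CMC and MEP1+Metformin.

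**Figure D3:**
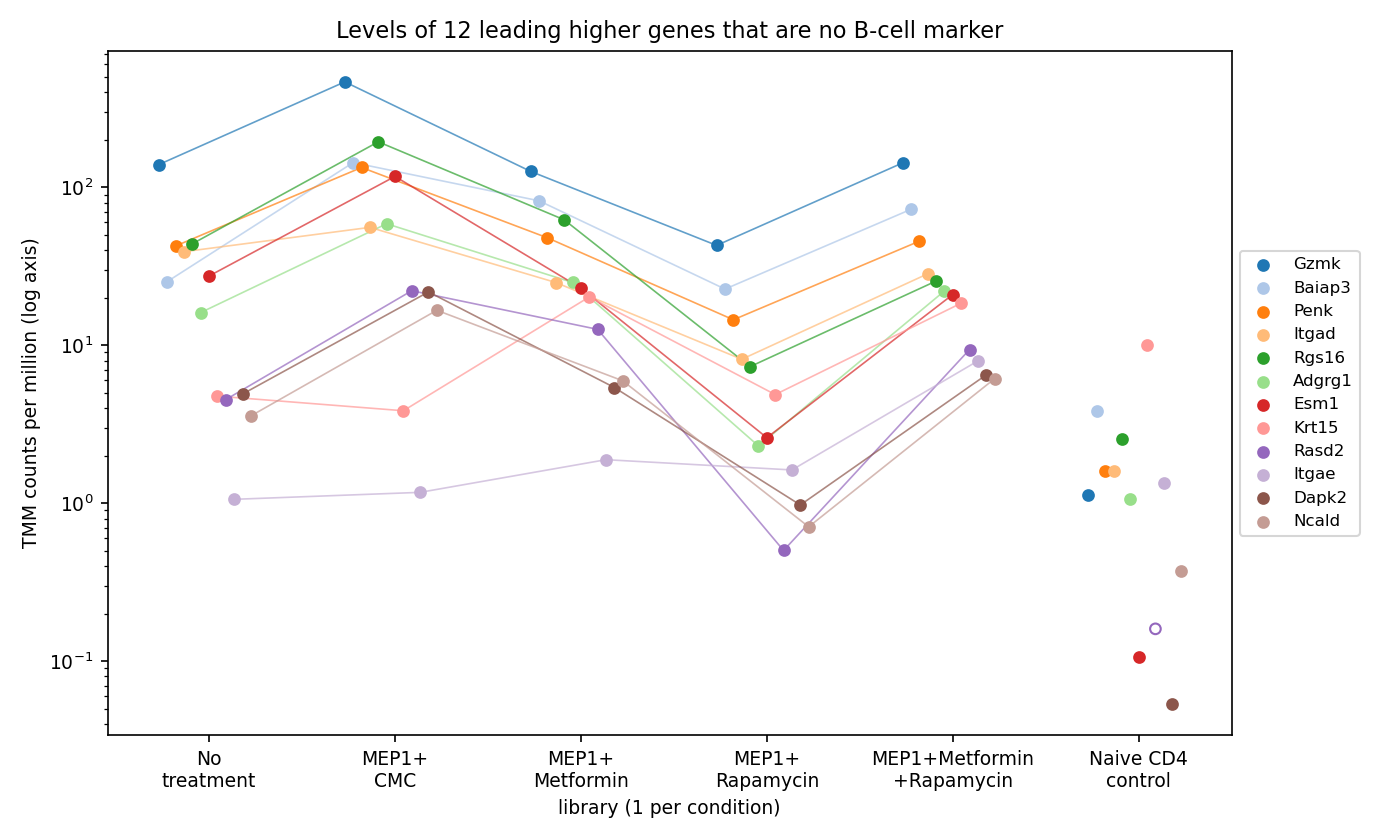
Levels in TMM CPM (log axis) of 12 leading higher genes that are no B-cell marker, in the 6 libraries, 1 point per gene and library, with lines joining the 5 libraries of transferred cells. The open point is a count of 0 drawn at 3 counts. Most lines peak at MEP1+CMC, reach their lowest point at MEP1+Rapamycin and return in the combination to about the level of MEP1+Metformin.

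Of the 20 genes of the Th1 list 19 were measured, 3 passed as higher and none as lower, beside 2.38% and 4.6% of all genes, and the list median was 0.56 beside -0.03. The 3 were Gzmk, Eomes and Nkg7. Eomes, the T-box factor of cytotoxic and memory cells, was at 47.4 CPM in the combination and 16.9 with rapamycin, against 35.9 in No treatment, 162 in MEP1+CMC and 42.2 in MEP1+Metformin, a ratio of 2.81-fold (2.56 to 3.08). Nkg7, a protein of cytotoxic granules, was at 440 and 216 CPM with 1565 in MEP1+CMC, and its ratio was 2.04-fold (1.99 to 2.09).

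The core Th1 genes did not pass. Ifng, the cytokine itself, was at 25 CPM in the combination and 19.1 with rapamycin, a log2 ratio of 0.38 (0.25 to 0.52) that excluded no change and was 0.76 with the length trend removed. Both levels were below the 60.7 of No treatment, the 74.5 of MEP1+Metformin and the 195 of MEP1+CMC. Tbx21, which encodes T-bet, had a log2 ratio of 0.59 (0.42 to 0.77). Ccl5, a chemokine of effector cells, was at 909 and 486 CPM with a log2 ratio of 0.90 (0.88 to 0.93), and it passed with the length trend removed, at 1.36.

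The list of anergy and coinhibition genes had 2 higher and no lower gene among 20 measured, beside 2.38% and 4.6% of all genes, and a median of 0.32. Havcr2, which encodes TIM-3, was at 4.17 CPM in the combination and 0.797 with rapamycin, on 236 and 27 counts, against 7.69 in No treatment, 14.6 in MEP1+CMC and 7.01 in MEP1+Metformin. The ratio was 5.22-fold (3.50 to 8.09). Tigit, a receptor that competes with CD226 for shared ligands, was at 61.9 and 29.6 CPM, beside 98.9, 210 and 70.9, a ratio of 2.09-fold (1.95 to 2.24). Prdm1, which encodes the regulator Blimp-1, was at 23.4 and 11.3 CPM, 2.07-fold (1.85 to 2.33), and was just under 2-fold, at a log2 ratio of 0.99, with the length trend removed. Ier3, an early response gene, was at 19.2 and 7.97 CPM with 87.9 in MEP1+CMC, 2.41-fold (2.11 to 2.77) above rapamycin.

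Il10ra, the ligand-binding chain of the interleukin-10 receptor, was at 166 CPM in the combination and 79.1 with rapamycin, 2.09-fold (2.01 to 2.19). It was the single gene that passed among 25 cytokine receptors and SOCS genes, beside 6.98% of all genes. Il10 did not pass: it was at 2.37 and 3.04 CPM on 134 and 103 counts, a log2 ratio of -0.36 (-0.74 to 0.02). Both values were far below the 42.4 CPM of MEP1+CMC and below the 11.6 of No treatment and the 7.17 of MEP1+Metformin. Il21, the helper cytokine of follicular T cells, was at 23.4 and 13.5 CPM, a log2 ratio of 0.80 that did not pass.

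The regulatory T-cell list had 16 measured genes, with 2 higher and 1 lower, beside 2.38% and 4.6% of all genes. Its members below 0 were 12, and the median was -0.28, which was -0.09 with the length trend removed. Foxp3, the defining transcription factor, was at 71.4 CPM in the combination and 126 with rapamycin, on 4047 and 4251 counts, against 7.54 in No treatment, 50.8 in MEP1+CMC, 58.7 in MEP1+Metformin and 13.8 in naive cells. Its log2 ratio of -0.81 (-0.88 to -0.75) excluded no change but stayed under 2-fold, and rapamycin alone was the highest library. Lrrc32, which encodes the TGF-beta docking receptor GARP, was at 3.58 and 8.54 CPM and passed as lower, 2.38-fold (1.98 to 2.86) below rapamycin. The 2 higher members were Itgae and Tigit, which other T cells also express.

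Follicular helper genes had 14 of 16 members above 0 and a median of 0.26. None passed as higher and 1 as lower, beside 2.38% and 4.6% of all genes. Ascl2, a transcription factor that starts the follicular program, passed as lower on 54 and 76 counts, at 0.953 and 2.24 CPM, and missed the threshold with the length trend removed, at a log2 ratio of -0.97. The Th17 list (9 measured) and the Th2 list (8 measured) had no gene that passed. The largest ratio among them was that of Ccr8, at 2.51 and 4.34 CPM with a log2 ratio of -0.79.

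Of 25 measured genes of a recent antigen-receptor signal, 1 passed as lower and Ier3 passed as higher, beside 4.6% and 2.38% of all genes. The median was -0.27, with 20 below 0, and it was -0.12 with the length trend removed. The combination was the lowest of the 5 transferred libraries for 15 of the 25, beside 1612 of the 12928 genes tested. Rapamycin was the highest for 4, beside 28.2% of all genes, so the order of Fosb given next was not that of most members. The lower gene was Fosb, an AP-1 subunit induced within minutes of stimulation or of tissue handling, at 29.4 CPM in the combination and 93.1 with rapamycin. It was at 22.5 in No treatment, 40.2 in MEP1+CMC, 41.8 in MEP1+Metformin and 3.42 in naive cells, so that rapamycin alone stood above the other transferred libraries and the combination lay among them. The ratio was 3.16-fold (2.98 to 3.36) in favour of rapamycin.

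Heat shock genes, which cell dissociation also induces, moved beside it. Of 13 measured, 2 passed as lower and none as higher, beside 4.6% and 2.38% of all genes, and the median was -0.41. Hspa1b was at 266 and 587 CPM and Hspa1a at 107 and 228. Both were highest with rapamycin, and both had log2 ratios of about -1 that depended on the scaling, -0.99 and -0.94 with TMM factors taken over all listed genes. The 2 genes are near-identical copies, so their split is uncertain. Whether handling of the cells differed between the libraries was not tested.

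Naive and memory genes gave no common direction. None of the 20 naive and quiescence genes passed, with a median of -0.06. Il7r, the receptor of the survival cytokine interleukin-7, was at 386 and 366 CPM. Bach2, a repressor that keeps T cells quiescent, was at 45.0 and 70.6 CPM, and Dapl1, a gene of resting T cells, at 78.4 and 143. Among 28 antigen-experienced and memory genes 3 passed as higher and none as lower, beside 2.38% and 4.6% of all genes. Ccr2 and Prdm1 were among the 3. The list median was -0.24, and it turned to 0.03 with the length trend removed.

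The 15 leading lower genes, ranked the same way under the same limits, included Clca3a2, Fcgbp, Krt14, Siglech, Klf4, Ltb4r1, Adgrg5, Mir703, Pltp, Fosb, Foxo4, Fhod1, Mroh2a and Rpl30-ps1. In 14 of the 15 the rapamycin library was the highest of the transferred libraries, beside 28.2% of all genes. In 8 the combination was the lowest, beside 1612 of the 12928 genes tested. The ranking by this ratio favours both places. The ribosomal pseudogene Rpl30-ps1 can draw reads from its parent gene, and it missed the threshold with the length trend removed, at a log2 ratio of -0.86.

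Clca3a2, a calcium-activated chloride channel regulator of epithelium (ENSMUSG00000028262, chr3:144796559-144819494), had 6 counts in the combination and 210 with rapamycin, or 0.106 and 6.20 CPM. It was at 0.232 in No treatment and 0.159 in MEP1+Metformin, but at 3.18 in MEP1+CMC and 9.56 in naive cells. Fcgbp, a mucus protein, had 8 and 230 counts and the same pattern, with 0.149 CPM in No treatment, 3.20 in MEP1+CMC, 0.338 in MEP1+Metformin, 6.79 with rapamycin, 0.141 in the combination and 7.00 in naive cells. Krt14, a basal keratin, was at 2.07 CPM in the combination and 17.9 with rapamycin, with 10.4 in MEP1+CMC and 28.9 in naive cells. These 3 genes were thus high in the libraries MEP1+CMC, MEP1+Rapamycin and naive, and low in No treatment and both libraries with metformin.

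Siglech, the marker receptor of plasmacytoid dendritic cells, was at 1.84 and 11.9 CPM with no count in naive cells, a ratio of 6.50-fold (5.23 to 8.14) in favour of rapamycin. It was the single gene that passed among 19 measured macrophage, monocyte and dendritic markers, beside 6.98% of all genes. The summed level of that list was 582 CPM in the combination and 527 with rapamycin. Klf4, a factor that restrains T-cell division and is also found in myeloid cells, was at 3.55 and 15.2 CPM, below the 9.2 to 10.4 of the other 3 transferred libraries in the combination and above it with rapamycin. Foxo4, a forkhead factor that AKT holds out of the nucleus, was at 2.67 and 8.33 CPM, with 2.02 to 4.05 in the other 3. Ltb4r1, the leukotriene B4 receptor, was at 1.57 and 6.11, and Adgrg5 at 1.52 and 5.67.

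Promoters of 3 leading genes are printed because Esm1 and Gzmk lie at one locus and were higher together, and because Krt14, one of the leading lower genes, holds a match to a motif searched. Each is the 250 bases before the start of transcription in RefSeq on GRCm38.p6, 5′ to 3′ on the strand of the gene, and capitals mark the motif match. They lie at chr13:113209409-113209658 (+ strand, Esm1), chr13:113180966-113181215 (- strand, Gzmk) and chr11:100206031-100206280 (- strand, Krt14).
Esm1: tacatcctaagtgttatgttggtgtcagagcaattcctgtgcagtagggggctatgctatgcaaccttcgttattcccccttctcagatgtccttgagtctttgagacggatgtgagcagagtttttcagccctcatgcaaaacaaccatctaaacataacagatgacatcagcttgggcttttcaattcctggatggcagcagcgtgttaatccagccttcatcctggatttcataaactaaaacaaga
Gzmk: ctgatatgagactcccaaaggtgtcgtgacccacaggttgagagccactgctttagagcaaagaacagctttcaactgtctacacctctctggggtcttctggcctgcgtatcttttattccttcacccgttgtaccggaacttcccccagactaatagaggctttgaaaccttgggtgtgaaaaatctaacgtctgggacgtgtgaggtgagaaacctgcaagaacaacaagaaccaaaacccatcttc
Krt14: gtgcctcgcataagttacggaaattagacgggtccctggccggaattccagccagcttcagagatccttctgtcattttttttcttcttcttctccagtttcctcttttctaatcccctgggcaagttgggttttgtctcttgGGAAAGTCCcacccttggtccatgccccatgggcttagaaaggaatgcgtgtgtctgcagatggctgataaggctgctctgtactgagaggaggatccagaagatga

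The search used TGACGTCA (the cAMP response element), TGTTTAC (forkhead), TGANTCA (AP-1), TGATGCAA (the composite element of ATF4 and C/EBP), CACGTG (E-box) and GGACTTTCC (NF-kB) on both strands. The RefSeq promoter table held 9141 of the 12928 genes tested, 206 of the higher and 250 of the lower genes. The AP-1 letters stood in 6.31% of the higher and 6.8% of the lower promoters, beside 4.04% of all. The E-box letters stood in 4.37% and 5.20%, beside 8.47%. The NF-kB letters, which Krt14 and Clca3a2 hold, stood in 0.485% and 1.60%, or 1 and 4 promoters, beside 0.438%, or 40 promoters. The forkhead letters stood in 2.91% and 2.40%, beside 2.13%. The cAMP response element stood in 0.971% and 1.20%, or 2 and 3 promoters, beside 2.78%. The ATF4 element stood in none of the higher and 1.20% of the lower, or 3 promoters, beside 0.470%. Beside Krt14, the leading genes Clca3a2, Klf4 and Siglech hold matches, and their promoters are not printed. A match is a description of the letters and shows no binding.

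The drugs' own signalling machinery, measured as transcripts, held no gene that passed. None of 30 measured genes of the AMPK and mTOR machinery passed, and their median was 0.02. Tsc2, the brake on mTOR complex 1 that AMPK phosphorylates, was at 70.0 CPM in the combination and 42.4 with rapamycin, a log2 ratio of 0.73. Deptor, an inhibitor inside the mTOR complexes, was at 1.29 and 1.95 CPM on 73 and 66 counts. These 2 had the largest ratios of the list.

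Energy stress and FOXO targets had 1 gene that passed of 20, as higher, beside 2.38% of all genes. Arrdc3, an arrestin-like protein of receptor sorting, was at 21.7 and 7.89 CPM, 2.75-fold (2.40 to 3.15) above rapamycin, with 18 to 26 in the other 3 transferred libraries, so that rapamycin alone stood low. Ddit4, which encodes the mTOR inhibitor REDD1, was at 14.9 CPM in both libraries, a log2 ratio of 0.01 (-0.16 to 0.17), above the 4.54 to 9.29 of the others. Txnip, the glucose-sensing arrestin that limits glucose uptake, was at 810 and 628 CPM, a log2 ratio of 0.37 that did not pass, and these were the highest of the transferred libraries. The list median was -0.14 and turned to 0.02 with TMM factors over all listed genes.

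Respiratory chain transcripts were lower as a group without passing. Of the 13 mitochondrially encoded genes 12 were below 0, with a median of -0.66. Only mt-Nd6, a complex I subunit, passed, as lower, beside 4.6% of all genes. It was at 127 and 258 CPM with a log2 ratio of -1.02 (-1.07 to -0.98). The other complex I subunits mt-Nd1, mt-Nd2, mt-Nd3, mt-Nd4, mt-Nd4l and mt-Nd5 had log2 ratios of -0.75, -0.98, -0.76, -0.72, 0.08 and -0.32. The complex IV subunits mt-Co1, mt-Co2 and mt-Co3 had -0.36, -0.74 and -0.66, the complex III subunit mt-Cytb had -0.53, and the ATP synthase subunits mt-Atp6 and mt-Atp8 had -0.62 and -0.36. Complex I transcripts thus spanned the range of the other complexes. With the length trend removed the list median was -0.13, and mt-Nd6 was at -0.41.

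Per kilobase of exon mt-Co1 had the highest level of them, at 3354 CPM per kilobase in the combination and 4309 with rapamycin. Without division by length it was at 5183 CPM in the combination, 6657 with rapamycin, 5432 in MEP1+Metformin, 6858 in MEP1+CMC and 9236 in No treatment. The 2 libraries with metformin were the lowest of the 5. The combination was the lowest of the 5 for 9 of the 13 genes and MEP1+Metformin for the other 4, beside 1612 and 2643 of the 12928 genes tested. Nuclear genes of oxidative phosphorylation had no gene that passed among 35, 30 below 0 and a median of -0.42, which was -0.13 with the length trend removed. MEP1+Metformin was the lowest of the 5 libraries for 26 of the 35, beside 2643 of the 12928 genes tested. These ranks of levels were not corrected for exon length. Metformin over MEP1+CMC also moved with exon length, with a median log2 ratio of -0.22 in the shortest protein-coding genes and 0.17 in the longest. Ndufa1 and Ndufc1, complex I subunits, had the largest ratios of the list, with log2 values of -0.68 and -0.76.

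All 36 cytosolic ribosomal protein genes were below 0, and none passed. Their log2 ratios ran from -0.96 to -0.37 with a median of -0.68, beside -0.03 over all genes, and the median was -0.44 with the length trend removed and -0.53 with TMM factors over all listed genes. The rapamycin library was the highest of the 5 transferred libraries for all 36, beside 28.2% of all genes. Rpl5 was at 286 CPM in the combination, 556 with rapamycin, 363 in No treatment, 292 in MEP1+CMC and 261 in MEP1+Metformin. Ribosome biogenesis and Myc genes had no gene that passed among 26 and a median of -0.14. Myc was at 48.1 and 56.6 CPM, and Odc1, the Myc target that starts polyamine synthesis, at 75.4 and 72.6, both under the 161 to 187 of the other 3 libraries.

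Glycolysis, lipid and stress pathways stayed near 0. Glycolysis had a median of 0.02 and 1 higher gene of 23, beside 2.38% of all genes. This was the aldolase Aldoc, at 3.09 and 1.21 CPM. Hk2, the hexokinase of activated T cells, was at 2.07 and 2.98 CPM and did not pass. Fatty acid oxidation had no gene that passed among 19 and a median of 0.09, with Cpt1a, which admits fatty acids to the mitochondrion, at 106 and 96.3 CPM. Cholesterol and fatty acid synthesis had a median of 0.12 and 1 higher gene of 26, beside 2.38% of all genes. This was the desaturase Scd1, on 193 and 57 counts, which missed the threshold with the length trend removed.

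Of 21 amino acid and ATF4 response genes 1 passed as lower, beside 4.6% of all genes. This was Gpt2, an alanine transaminase, at 1.55 and 3.22 CPM. It missed the threshold with library totals and with TMM factors over all listed genes. Asns, the asparagine synthetase often used as a readout of ATF4, was at 15.8 and 16.1. Autophagy and lysosome genes (28) and the unfolded protein response (20) had none that passed, with medians of 0.12 and 0.15. In the latter list 17 of 20 were above 0. The rapamycin library was the lowest of the 5 transferred libraries for 15, beside 25.8% of all genes. Hyou1, a chaperone of the endoplasmic reticulum, was at 51.6 and 29.8 CPM. Mitochondrial upkeep, hypoxia and oxidative stress lists had no gene that passed among 19, 15 and 23. Mfn2, a mitochondrial fusion protein, was at 78.1 and 41.6 CPM, a log2 ratio of 0.91 that passed with library totals.

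Interferon response genes had 27 of 40 below 0 and a median of -0.26, which was -0.11 with the length trend removed. The 1 lower gene of the 40, beside 4.6% of all genes, was the antiviral enzyme Rsad2, at 4.75 and 9.51 CPM. Its ratio lay at the threshold, with a log2 value of -1.0, and missed it under 6 other settings. Of 17 p53 targets 3 passed as lower, beside 4.6% of all genes, and these were Gdf15, Gtse1 and Cdkn1a. The list median was 0.01, with 9 above 0. Gdf15 and Cdkn1a missed the threshold with library totals, with TMM factors over all listed genes and with the length trend removed. Cdkn1a, the cell cycle inhibitor p21, was at 2.19 and 4.61 CPM, below the 6.23 to 11.2 of the other transferred libraries in both. Gdf15, a cytokine that metformin raises in other tissues, had 10 and 15 counts, so that its level was barely above detection. Tnfrsf10b, a death receptor for TRAIL, was at 2.01 and 5.55 CPM. It was the single lower gene among 19 that promote apoptosis, beside 4.6% of all genes. The proliferation list had 1 higher gene of 20, beside 2.38% of all genes, the mitotic kinase Aurkb, on 85 and 16 counts.

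**Figure D4:**
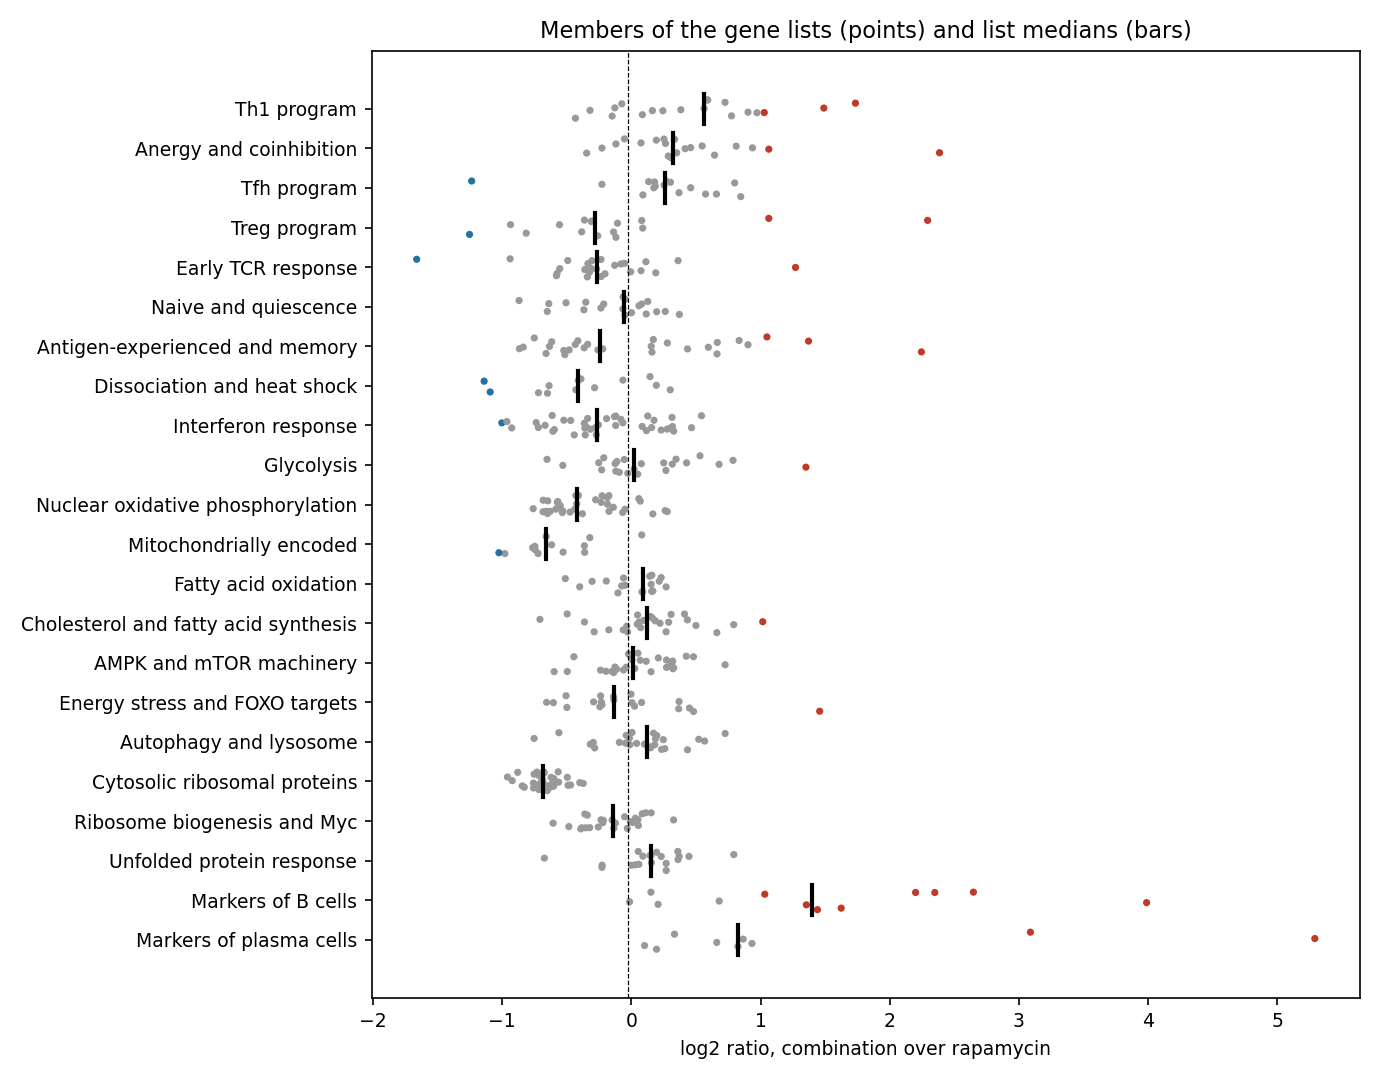
The log2 ratio of the combination over rapamycin for each measured member of 22 gene lists (points; red higher, blue lower, grey not passing), with list medians as bars and the median of all genes, -0.03, as a dashed line. The Th1, B-cell and plasma-cell lists sit to the right, and the ribosomal protein and mitochondrially encoded lists to the left with 1 member that passed.

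Markers of other cells differed between the libraries. Of 14 B-cell markers 12 were measured and 8 passed as higher, beside 2.38% of all genes. The list median was 1.40, and the summed level was 541 CPM in the combination and 435 with rapamycin. Cr2, the complement receptor CD21, was at 10.3 and 0.650 CPM, 15.9-fold (10.4 to 25.5). Blk, a B-cell kinase, was at 5.00 and 0.797, and Fcer2a, the receptor CD23, at 3.46 and 0.679. These 3 genes were at 4.82, 1.66 and 0.736 CPM in MEP1+CMC and at 1.75, 0.635 and 0.179 in MEP1+Metformin, both below the combination, and at 7.48, 5.55 and 5.93 in naive cells.

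Plasma cell genes moved with them. Igha, the constant region of immunoglobulin A, had 6283 counts in the combination and 96 with rapamycin, or 111 and 2.84 CPM, with 36.0 in No treatment and 14.9 in MEP1+CMC. MEP1+Metformin had 3 counts, or 0.0596 CPM. Ighg2b was at 20.6 and 2.42 CPM, and the summed level of the 10 plasma cell markers was 1370 and 1070. In all, 27 of the 308 higher genes were immunoglobulin segments or constant genes. Of 81 such genes tested, 27 passed as higher and 13 as lower, beside 2.38% and 4.6% of all genes. None of the 10 plasma and 14 B-cell markers was at 0 in either library. Neutrophil markers summed to 17.3 and 8.95 CPM, with 1 of 10 markers at 0 with rapamycin. Of 5 measured, 3 passed as higher, Ngp, Ltf and Csf3r, beside 2.38% of all genes. Erythroid and platelet markers summed to 66.6 and 109, with 1 of 14 markers at 0 with rapamycin. Of 10 measured, 2 passed as higher, Slc4a1 and Ppbp, and 2 as lower, the near-identical globin genes Hba-a1 and Hba-a2. The list median was 0.26, with 6 above 0. Both globin genes missed the threshold with library totals and with the length trend removed.

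No CD8 T-cell marker of 6 and no NK-cell marker of 5 measured passed. Their summed levels were 24.1 and 27.5 CPM for CD8 and 91.6 and 84.4 for NK cells, and no member was at 0. Prf1, which encodes perforin and is on the NK-cell list, was at 63.8 and 39.5 CPM, a log2 ratio of 0.69 (0.60 to 0.78) that excluded no change but stayed under 2-fold. The list median was 0.37 for NK cells, with 3 of 5 above 0, and -0.36 for CD8 T cells, and both changed sign with the filter on low counts. B-cell, plasma-cell and neutrophil markers were higher, and the part of all these cells in the other results was not tested.

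Metformin was also given without rapamycin, and MEP1+Metformin over MEP1+CMC shares no library with the comparison above. There 403 genes (3.12%) were higher and 357 (2.76%) lower, 5.88% in all. Those libraries differed in sex-linked transcripts, so metformin and the sex of the cells cannot be told apart in them. Of the 308 genes higher in the combination 100 were lower with metformin over CMC, which is 32.5% of the first list and 28% of the second, beside 2.76% of all genes. The number higher in both was 32, or 10.4% and 7.94%. Of the 595 lower genes 85 were higher with metformin over CMC, or 14.3% and 21.1%, and 58 were lower, or 9.75% and 16.2%. Of 275 genes that passed in both comparisons, 185 had opposite directions and 90 the same. Among protein-coding genes alone, 76 were higher in the combination and lower with metformin over CMC, and 28 the reverse. There 20 were higher in both and 36 lower in both. Over 12903 genes with a ratio in both, Spearman's rho was 0.126, as a description across genes that share libraries and depth.

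The following 8 effector and receptor genes were higher in the combination and lower with metformin over MEP1+CMC. Gzmk was 3.33-fold higher with rapamycin present, at a log2 ratio of 1.73, and had -1.88 (-1.92 to -1.84) over CMC. Ccr2 had 1.37 and -1.40, Esm1 3.01 and -2.35, Adgrg1 3.26 and -1.23, Eomes 1.49 and -1.94, Nkg7 1.03 and -1.90, Tigit 1.06 and -1.57, and Havcr2 2.39 and -1.06. For Gzmk the difference of both log2 ratios was 3.62 (3.53 to 3.71) and for Ccr2 it was 2.77 (2.63 to 2.92), with intervals of counting error only. The 8 genes are listed because they passed in opposite directions, so a large difference follows from that choice. Of the 19 Th1 genes 8 passed as lower and 2 as higher with metformin over CMC, and the median was -0.97. MEP1+CMC was the highest of the 5 transferred libraries for 13 of the 19, beside 14.1% of all genes. MEP1+Rapamycin was the lowest for 13, beside 25.8% of all genes. MEP1+Metformin was the lowest for 2 and the combination for 1.

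Over No treatment, a comparison that shares the MEP1+Metformin library with the one over CMC, metformin gave log2 ratios of -0.14 for Gzmk, 0.42 for Ccr2, -0.26 for Esm1 and 0.63 for Adgrg1. Eomes had 0.23, Nkg7 -0.06, Tigit -0.48 and Havcr2 -0.13, and none of the 8 passed. No treatment and MEP1+Metformin also differed in sex-linked transcripts and in markers of other cells. Macrophage, monocyte and dendritic markers summed to 3294 CPM in No treatment and 538 in MEP1+Metformin, and B-cell markers to 1076 and 362. CD8 T-cell markers went the other way, at 15.2 and 20.4. Stroma markers summed to 105 and 141. Only 1 of the 12 stroma markers was measured, Pecam1, at 102 and 137 CPM and at 150 in naive cells. The part of these differences was not tested. The 308 genes higher in the combination had a median log2 ratio of -0.35 with metformin over CMC and 0.14 over No treatment. Tbx21, with 0.59 over rapamycin, had 0.94 over CMC and 0.59 over No treatment and passed in none of them.

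Genes with the same direction in both comparisons were fewer and mostly at low levels. Krt15 had log2 ratios of 1.92 with rapamycin and 2.39 without it. Ccn2, a secreted matrix protein, had 111 counts in the combination and 1 with rapamycin, at log2 ratios of 6.05 and 5.85. Capn11, a calpain, had 147 and 8 counts, at 3.46 and 5.11. Clca3a2 had -5.87 and -4.32, Fcgbp -5.59 and -3.24, Krt14 -3.12 and -2.21, and Ecel1, an endothelin-converting-like enzyme, -4.44 and -4.19 on 4 and 52 counts. Hspa1b was lower in both, at -1.14 and -1.23.

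**Figure D5:**
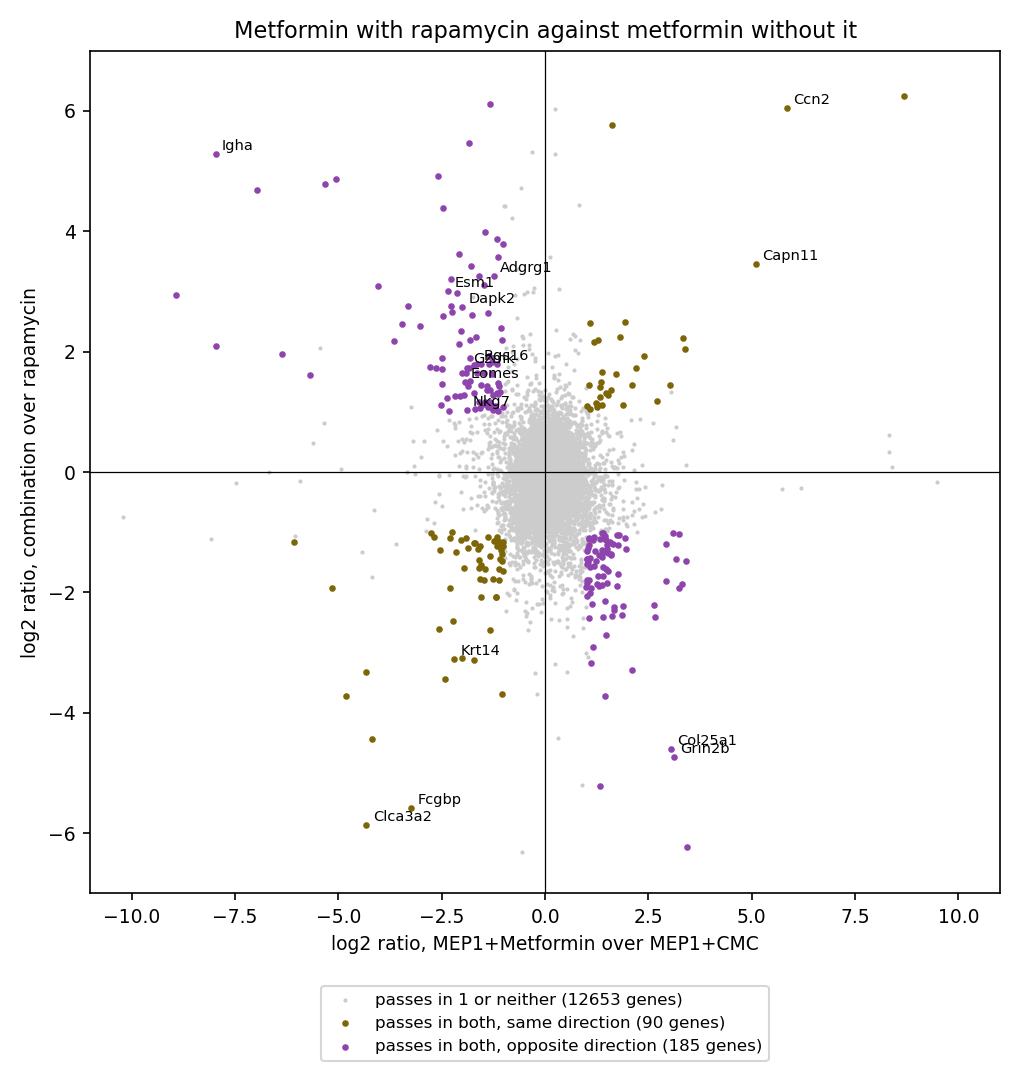
The log2 ratio of the combination over rapamycin (vertical axis) against that of MEP1+Metformin over MEP1+CMC (horizontal axis), 1 point per gene, with 3 genes outside the axes and genes without a ratio in one comparison left out. The 185 genes that passed with opposite directions, Gzmk, Eomes and Esm1 among them, fill the upper left and lower right, and the 90 with the same direction include Ccn2, Clca3a2 and Fcgbp.

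Placed among No treatment, MEP1+CMC and MEP1+Metformin, it was the rapamycin library that lay outside more often. Rapamycin was below all 3 for 229 of the 308 higher genes, or 74.4% beside 28.6% of all genes, and above all 3 for 477 of the 595 lower genes, or 80.2% beside 31.1%. The combination lay within the range of the 3 for 59.1% of the higher and 59.2% of the lower genes, beside 57.7% of all genes. The genes were chosen by their ratio over the rapamycin library, so a place of that library at an extreme is favoured by the choice.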

How the data were processed

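RNA of sorted mouse CBir1 TCR transgenic CD4 T cells was sequenced, 1 library per condition, by an ultra-low library protocol per the labels. The authors deposited counts of reads per gene, summed over exons and not normalized, per the file headers. Per the submitters' processing notes they used GRCm38, featureCounts (Subread 1.5.2), STAR 2.5.2b and Trimmomatic 0.36. Strand setting, annotation release and multimapping are not given in the sources used here. Of 49315 listed genes 48970 matched a symbol, and gene types came from GENCODE M21.

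Genes were kept with at least 2 CPM of the library total and 10 counts in 1 of the 6 libraries, which left 12928. TMM factors were taken over these genes in edgeR 4.0.16 (R 4.3.3) and were 1.13 for the combination and 1.05 for rapamycin. Over all listed genes, which mix in loci with few counts, they were 1.11 and 1.15. Ratios and exact Clopper-Pearson intervals at 95% were computed with scipy 1.17.1 (Python 3.11.15, pandas 2.3.3, numpy 2.4.6), and figures were drawn with matplotlib 3.10.9. Intervals of a difference between log2 ratios were not exact. They used a normal approximation on the log scale (Wald), which is rough where counts are few. A count of 0 was set to a floor of 3 counts per library in a ratio. The length trend was removed with a lowess fit (statsmodels 0.14.6). With 1 library a side no test across samples was possible.

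The text names the 15 higher and 15 lower genes whose interval bound is farthest from no change, at 5 CPM or more and without receptor segments, sex-linked, ribosomal RNA-like and clone-named loci. It also names up to 4 members of each list that pass or, if none passes, the 2 with the largest ratios, a set of key regulators with the 13 mitochondrial genes, and up to 8 genes that pass in both metformin comparisons with up to 4 of opposite direction. The comparison and its 49 gene lists (866 genes, 76 in more than 1 list) were chosen with earlier results of these data known. The alternatives were DESeq2 1.42.0 size factors, library totals, other filters and folds, a thinned deeper library, classes of genes left out and the length trend. TMM over all listed genes and protein-coding genes alone were added after seeing the data. A few genes that these rules name, and 1 promoter sequence, are not reported here.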

Additional observations from a re-analysis of the deposited data

Results flagged for a closer look

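Metformin went with opposite differences in the presence and absence of rapamycin for 185 genes, which passed in both comparisons with opposite direction. Not all of them code for protein. Another 90 genes passed in both with the same direction. Among protein-coding genes, 76 were higher with rapamycin present and lower without it, and 28 the reverse. There 20 were higher in both and 36 lower in both. Of the higher protein-coding genes 30.5% were opposite and 8.03% the same, beside 2.31% and 1.96% of all protein-coding genes. Of the lower ones 10.9% were opposite and 14% the same, beside 1.96% and 2.31%. The difference between the comparisons was not tested across samples, because each has 1 library a side, and MEP1+CMC differed from the other 3 libraries in sex-linked transcripts.

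Ranked by the smaller of both absolute ratios, and with immunoglobulin segments left out, the first 4 of the 185 genes had few counts. They were chosen for passing in opposite directions, so a large difference between the ratios follows from that choice. Grin2b, a glutamate receptor subunit, had 5 counts in the combination and 80 with rapamycin, and its log2 ratio with rapamycin minus that without it was -7.86 (counting interval -10.04 to -5.69). Col25a1, a membrane collagen, had 5 and 73 counts and a difference of -7.66 (-9.66 to -5.67). Chst1, a sulfotransferase, had 34 and 3 counts and a difference of 6.08 (4.17 to 7.98). H2-M2, an MHC class I-like gene, had 70 and 2 counts and a difference of 6.86 (4.70 to 9.02).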

How the results depend on the processing

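No gene named in the text that passed the size rule changed sign under any alternative. Among those that did not pass, mt-Atp8 ran from -0.36 to 0.33 and mt-Nd4l from -0.03 to 0.78. Ddit4 ran from -0.02 to 0.26 and Asns from -0.03 to 0.13. In all, 134 of 151 kept their side of the size rule under all of them apart from the changed fold. The number of genes higher and lower in the combination was 947 and 5948 without a filter on low counts, 80 and 73 at 10 CPM or more, 953 and 1847 at 1.5-fold and 131 and 176 at 3-fold. Among protein-coding genes alone 257 were lower, and with TMM over all listed genes 425 were higher and 425 lower, with the median over all genes at 0.13. Removing the length trend gave 379 and 422. Genes of the lists, 31 higher and 19 lower as reported, came to 17 and 11 at 10 CPM or more, 81 and 112 at 1.5-fold and 15 and 4 at 3-fold. The lower ones were 10 with library totals, 33 without a filter and 9 with TMM over all listed genes. For metformin over CMC the numbers were 3031 and 1353 without a filter, 61 and 123 at 10 CPM or more, 1062 and 888 at 1.5-fold and 121 and 166 at 3-fold, and 215 protein-coding genes were higher. The genes tested were 33153 without a filter and 9076 at 10 CPM or more, beside 12928, and the changed fold moves a count by construction. For the scalings the cause was not tested. The depth limits low genes: 71 genes that passed had fewer than 10 counts in the lower library. No paired analysis was possible because each condition has 1 library, and for the same reason no replicate could be left out.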
